A study of Mus musculus with 2 samples.

Results

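The cell cycle genes and inhibitors described here are 40 genes fixed by name. They were 13 genes of G1 phase (D and E cyclins, their kinases, the retinoblastoma family and E2F factors), 10 of S phase, 12 of G2 phase and mitosis, 4 inhibitors of cyclin-dependent kinases (Cdks) and Mdm2. All 40 were found by symbol and gene identifier among the 55536 genes with Ensembl identifiers, of which 22028 were protein-coding. The cells were primary macrophages grown from the bone marrow of C57BL/6J mice. They were treated with Lipid A, the membrane anchor of bacterial lipopolysaccharide and the ligand of TLR4, at 100 ng/ml for 12 h, kept without it for 12 h, and treated again at 100 ng/ml for 40 min. RNA of the nuclear fraction, called nucleoplasmic in the labels, was depleted of ribosomal RNA and sequenced in 2 libraries labelled biological replicates 1 and 2. Both libraries belonged to this 1 group, with no unstimulated cells and no cells stimulated once, so the values are levels in restimulated cells and no change with Lipid A could be tested. The labels give 1 donor entry for both libraries, 1 µg of RNA as input to library 1 and 500 ng as input to library 2, and neither the sex nor the age of the animals.

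In dividing cells, D cyclins with Cdk4 or Cdk6 and E cyclins with Cdk2 phosphorylate the retinoblastoma proteins. This frees E2F factors to switch on the genes of DNA replication, and cyclins A and B with Cdk1 then drive G2 phase and mitosis. Proteins of the Cip/Kip family such as p21 (Cdkn1a) and of the INK4 family such as p18 (Cdkn2c) inhibit the kinases. The transcription factor p53 activates Cdkn1a and also Mdm2, whose product marks p53 for destruction. Bone marrow precursors divide in response to the growth factor M-CSF as they become macrophages, and lipopolysaccharide is known to stop that division.

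The libraries held 19797829 expected counts on named genes in library 1 and 17213606 in library 2. The limit that a count of 0 allows, 3 counts, corresponded to 0.152 CPM for library 1 and 0.174 CPM for library 2. Genes of the mitochondrial genome, which is transcribed outside the nucleus, took 2.63% of the counts in library 1 and 6.60% in library 2. The macrophage identity was read from 12 marker genes, and all 12 were detected, with a median of 191 TPM (the authors' level of a gene, scaled by transcript length and to a fixed total per library) and Gpnmb the highest at 1688 TPM in library 1 and 1938 in library 2. Of 51 measured markers of 8 other cell types (Flt3 marks both progenitors and dendritic cells), 7 were detected and 16 were at 0 in both libraries. Their summed levels lay between 0.06 TPM (mast cells and basophils) and 8.92 TPM (B cells) in library 1, and between 0.03 and 6.34 TPM in library 2. The highest marker of each of these types was Cd22 for B cells (8.73 TPM in library 1 and 6.25 in library 2), Ccr7 for dendritic cells (1.18 and 1.16), S100a8 for neutrophils (0.49 and 0.96), Kit for progenitors (0.51 and 1.17), Lck for T cells (0.28 and 0.32), Col1a2 for fibroblasts (0.18 and 0.05), Epor for erythroid cells (0.18 and 0.19) and Gata2 for mast cells and basophils (0.02 and 0.03).

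Most cell cycle genes were expressed at a low level, and a few stood far above the rest. Detection required at least 10 expected counts in each library. By this rule 36 of the 40 members were detected, against 49.9% of all protein-coding genes. The 4 that fell short were Ccne1, Plk1, Ccnb2 and Cdc20. The median level of the 40 members was 2.31 TPM, against 6.38 TPM for the 10991 detected protein-coding genes. Placed among those genes, the member median lay at percentile 25.7 ± 2.31 (SD of the percentiles of the 2 libraries taken alone). A total of 12 members lay at or above the median gene and 20 lay in the lowest 25%, 10 of which were G2/M genes. Only Cdkn1a and Mdm2 reached the highest 10% of detected protein-coding genes.

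The classes of members differed in level. The median percentile was 50.7 ± 4.32 for the 13 G1 genes, 36.4 ± 6.24 for the 4 inhibitors, 25.7 ± 1.11 for the 10 S phase genes and 6.04 ± 1.79 for the 12 G2/M genes. In TPM these medians were 6.55, 4.49, 2.31 and 0.533. The percentiles depend on which genes form the background, but the order of the classes was the same in all 6 alternative settings tried. Settings that changed only the count minimum ranked the same mean TPM, so they could hardly alter this order. Each library alone is a part of that mean. Only kallisto TPM and counts in place of TPM used another measure. In RNA from many cells, fewer cells in a phase and less RNA per cell cannot be told apart.

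**Figure D1:**
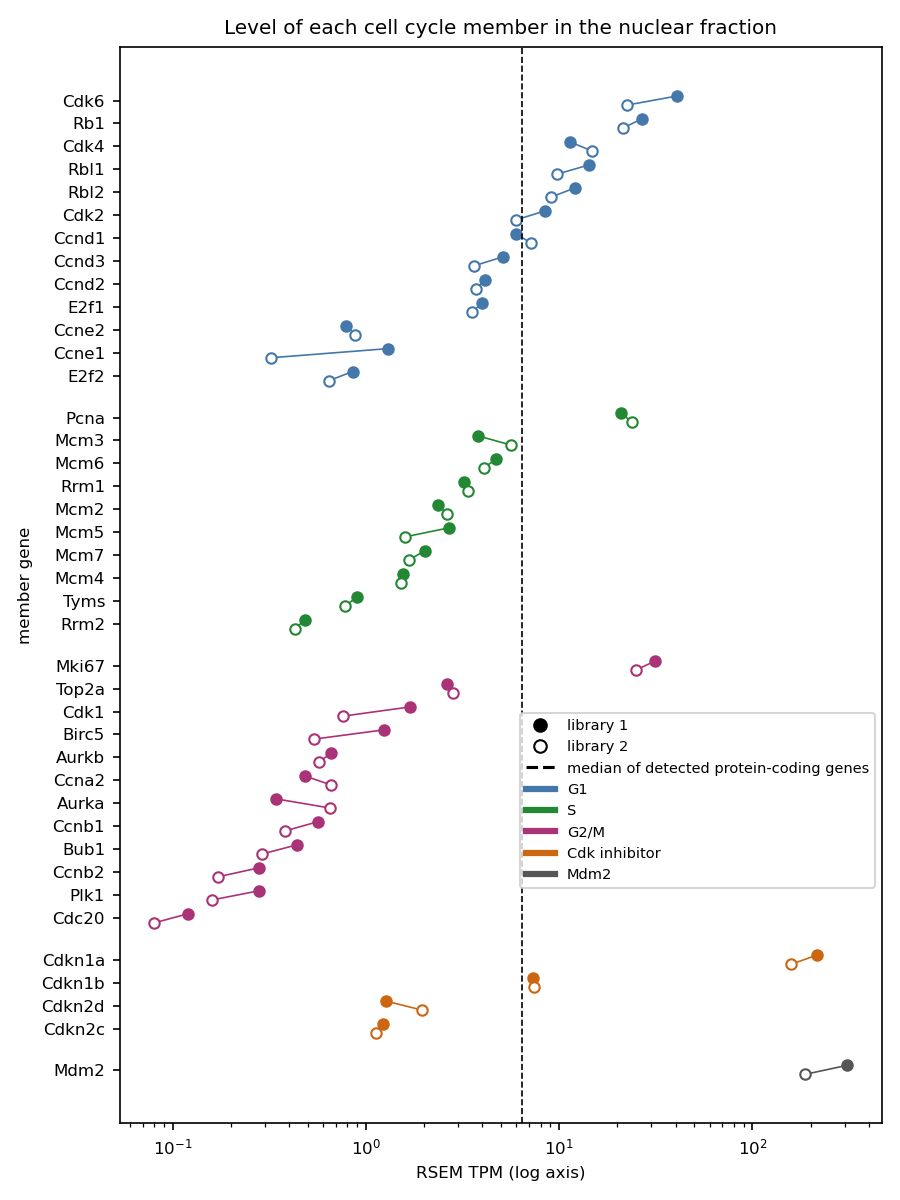
Level of each of the 40 members in TPM on a log axis, with library 1 as filled and library 2 as open circles, genes grouped by class and ordered by mean level, and a dashed line at the median of detected protein-coding genes (6.38 TPM). Mdm2 and Cdkn1a stand at the right edge, Mki67 is the only G2/M gene right of the line, and Pcna is the only S phase gene there.

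The plot of levels shows that within S phase, G2/M and the inhibitors a single gene stood apart from the others. Cdkn1a and Mdm2 together took 69.7% of the summed TPM of the 40 members in library 1 and 64.4% in library 2. By counts they took 48.5% (Wilson 95% interval 48.0% to 49.0%) in library 1 and 44.1% (43.5% to 44.7%) in library 2. Such intervals hold counting error alone, as reads that lack molecular identifiers may be copies of 1 molecule. All 40 members held 0.181% of the counts on named genes in library 1 and 0.178% in library 2.

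Cdkn1a, the gene of the p21 inhibitor of cyclin-dependent kinases (chromosome 17, 29090976 to 29100727, plus strand, mm10), was the second most abundant member. It had 217 TPM in library 1 and 159 in library 2 (7076 and 5720 expected counts), a mean of 188 ± 41.1 TPM (SD, n = 2) at percentile 98.2. The other inhibitors were far lower. Cdkn1b, which encodes p27, had 7.32 TPM in library 1 and 7.43 in library 2, near the median gene at percentile 53.7. Cdkn1a therefore stood at 29.6 times the TPM of Cdkn1b in library 1 and at 21.4 times in library 2. Of the INK4 genes, which encode inhibitors of Cdk4 and Cdk6, Cdkn2d (p19) had 1.26 and 1.95 TPM, and Cdkn2c (p18) had 1.22 and 1.13 TPM. Both lay in the lowest 25% of detected genes, on 33 to 48 counts per library.

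Nearly all Cdkn1a RNA was assigned to protein-coding transcripts, 98.9% of its TPM in library 1 and 99.7% in library 2. Transcript Cdkn1a-201, which begins at base 29093769 of chromosome 17, took 74.9% of the gene's TPM in library 1 and 85.5% in library 2. Cdkn1a-203, which begins further downstream at base 29097900, took 23.7% and 13.2%. Transcript Cdkn1a-202, which begins 2790 bases upstream of Cdkn1a-201 at base 29090979, took 0.12% and 0.07%. Cdkn1a-204, a processed transcript without a coding sequence that begins at nearly the same place, base 29090976, took 1.06% and 0.30%. These shares are estimates from short reads, most of which fall on exons that the transcripts share. An unconfirmed gene on the opposite strand, AC167363.2, shares 273 exon bases with Cdkn1a, 7.68% of the member's exon bases. It was listed at 106 TPM in library 1 and 32.0 in library 2, and because the use of strand in counting is not given in the sources used here, reads on the shared bases cannot be told apart.

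Both start sites of Cdkn1a have a promoter window in RefSeq (GRCm38.p6), and the 250 bases before each are printed 5′ to 3′ because the sites differ in the share of RNA assigned to them. Capitals mark matches to a p53 motif, the 10-base element that p53 binds in pairs. The first window precedes base 29090979 (chr17:29090729-29090978, plus strand) and the second precedes base 29093769 (chr17:29093519-29093768, plus strand).
Cdkn1a, upstream start: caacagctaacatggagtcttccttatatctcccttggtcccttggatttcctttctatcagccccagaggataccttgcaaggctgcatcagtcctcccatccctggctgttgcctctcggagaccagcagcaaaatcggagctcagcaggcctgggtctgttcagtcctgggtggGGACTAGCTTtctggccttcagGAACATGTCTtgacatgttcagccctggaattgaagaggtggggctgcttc
Cdkn1a, downstream start: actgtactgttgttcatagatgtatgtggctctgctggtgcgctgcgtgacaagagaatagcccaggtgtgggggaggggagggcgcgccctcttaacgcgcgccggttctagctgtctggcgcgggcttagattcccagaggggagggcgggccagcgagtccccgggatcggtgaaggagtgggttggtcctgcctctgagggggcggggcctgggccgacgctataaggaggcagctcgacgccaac
The upstream window held 2 matches, at 73 to 64 and at 51 to 42 bases before the start. The downstream window, whose start is that of the most abundant transcript, held no match to any of the 5 motifs searched. A match is a description of letters, and binding of p53 was not measured.

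Mdm2, the gene of the ubiquitin ligase that targets p53 (chromosome 10, 117688875 to 117710758, minus strand), was the most abundant member by gene. It had 310.3 TPM in library 1 and 186 in library 2 (10263 and 7757 counts), a mean of 248 ± 87.6 TPM (SD, n = 2) at percentile 98.7. Its close relative Mdm4, which restrains p53 without degrading it, stood at 83.0 TPM in library 1 and 52.9 in library 2. The ratio of Mdm2 to Mdm4 TPM was 3.74 in library 1 and 3.52 in library 2.

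Unlike Cdkn1a, Mdm2 had little of its RNA in protein-coding transcripts. These took 18.4% of its TPM in library 1 and 18.2% in library 2, a mean that only 2.69% of the 7644 protein-coding genes with 100 or more counts in both libraries fell below. Transcripts annotated as retained introns took 59.5% in library 1 and 51.8% in library 2. Those annotated as targets of nonsense-mediated decay took 17.0% and 27.8%.

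Single transcripts of Mdm2 lay at both ends of the gene. The retained-intron transcript Mdm2-208, a short model that begins 44 bases downstream of the main start, took 30.7% in library 1 and 19.0% in library 2. Mdm2-209, the nonsense-mediated decay model, begins 736 bases downstream of that start and took 17.0% and 27.8%. Mdm2-204, a retained-intron model that begins 19238 bases downstream, took 15.9% and 17.4%. The protein-coding Mdm2-201 took 17.2% in library 1 and 17.7% in library 2 with RSEM, against 2.22% and 0.655% with kallisto, which placed 19.1% and 22.8% on the other coding model, Mdm2-202. The choice between these 2 coding models was therefore not settled by the files. Their sum was 18.4% and 18.2% with RSEM, against a mean of 22.4% with kallisto.

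Counting protein-coding transcripts alone, the order of the 2 genes was reversed. Cdkn1a then stood at 215 TPM in library 1 and 158 in library 2, and Mdm2 at 57.0 and 33.9 TPM. Cdkn1a was 3.77 times Mdm2 on this scale in library 1 and 4.67 times in library 2. In nuclear RNA a retained intron and an intron not yet removed give the same reads, so these classes do not separate stable isoforms from RNA still being processed.

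The 250 bases before the Mdm2 start (base 117710758) are printed for comparison with Cdkn1a, and the gene was chosen for this after its values were seen (chr10:117710759-117711008, minus strand). Capitals mark a p53 motif and a CCAAT box, the element bound by the factor NF-Y.
Mdm2: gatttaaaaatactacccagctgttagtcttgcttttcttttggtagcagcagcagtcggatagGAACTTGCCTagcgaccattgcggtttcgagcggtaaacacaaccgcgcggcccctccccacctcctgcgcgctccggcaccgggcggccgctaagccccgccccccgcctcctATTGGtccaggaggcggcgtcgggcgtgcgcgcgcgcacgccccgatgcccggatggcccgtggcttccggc
The p53 motif lay at 186 to 177 bases before the start and the CCAAT box, read on the opposite strand, at 72 to 68 bases.

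Of 20 other genes of the p53 network, p53 itself among them, 18 were detected, and their median lay at percentile 57.9 ± 1.34. The 3 highest were Mdm4 with the values above, Btg2, which encodes an antiproliferative regulator of mRNA decay (78.5 TPM in library 1 and 56.8 in library 2), and Bax, which encodes a protein that permeabilises mitochondria in apoptosis (44.0 and 21.4 TPM). The lowest detected was Ddit4, an inhibitor of mTORC1 signalling, at 0.57 and 0.49 TPM. Only 2 of the 20, Mdm4 and Btg2, lay in the highest 10% of detected genes, and by gene TPM both were below Cdkn1a and Mdm2. The part of p53 in any of these levels was not tested. Of 4 other Cdk inhibitor genes, Cdkn1c, Cdkn2b, Cdkn3 and Cdkn2a, only Cdkn1c (p57) was detected, at 0.39 TPM in library 1 and 0.64 in library 2. Cdkn2b, the gene of the INK4 inhibitor p15, had 0.35 and 0.30 TPM. Cdkn3, which encodes a phosphatase that acts on Cdks, had 0 and 0.58 TPM.

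The G1 genes had the highest median of the classes, and 12 of the 13 were detected. Among the kinases, Cdk6 led with 40.9 TPM in library 1 and 22.4 in library 2 (chromosome 5, 3341485 to 3531008), a mean of 31.7 ± 13.1 TPM. Cdk4, its partner in phosphorylating the retinoblastoma protein, had 11.3 and 14.8 TPM. Cdk2, the partner of cyclins E and A, had 8.47 and 5.95 TPM. By gene TPM the ratio of Cdk6 to Cdk4 was 3.61 in library 1 and 1.51 in library 2. Cdk6 was thus the higher in both libraries, by an amount that this scale does not fix. In protein-coding transcripts alone Cdk6 had 39.09 and 21.05 TPM and Cdk4 had 7.83 and 4.60, so both were lower in library 2. Cdk4-209, a retained-intron model of 468 bases, had 0 TPM in library 1 and 5.32 in library 2.

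The Cdk6 value also rested on short transcript models. Cdk6-202, the long protein-coding model of 11525 bases, took 26.5% of the gene's TPM in library 1 and 61.0% in library 2. Cdk6-203, a coding model of 697 bases, took 50.04% and 19.9%. By counts Cdk6 was lower in library 1, with 3123 counts against 3727 in library 2. Cdk4 shares 19.7% of its exon bases with Tspan31, a tetraspanin gene on the opposite strand listed at 21.03 TPM in library 1 and 21 in library 2, so part of its reads may not be its own.

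D cyclins were present at similar levels, and E cyclins were low. Ccnd1, the gene of cyclin D1, which growth factor signals induce, had 5.98 TPM in library 1 and 7.12 in library 2. Ccnd3 (cyclin D3) had 5.13 and 3.61 TPM, and Ccnd2 (cyclin D2) had 4.11 and 3.72 TPM. With RSEM Ccnd1 was thus 1.45 and 1.91 times Ccnd2, and 1.17 and 1.97 times Ccnd3, in the same order of libraries. The RSEM ranges of Ccnd3 and Ccnd2 overlapped over the libraries. With kallisto Ccnd1 had 1.48 TPM in library 1 and 4.08 in library 2, and Ccnd2 had 2.12 and 2.51. The order of Ccnd1 and Ccnd2 in library 1 therefore depended on the program. Ccnd1 shares 23.4% of its exon bases with LTO1, a gene on the opposite strand listed at 12.3 TPM in library 1 and 5.38 in library 2.

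The E cyclins, which act with Cdk2 at entry into S phase, lay near percentile 10. Ccne2 had 0.79 TPM in library 1 and 0.88 in library 2. It shares 17.4% of its exon bases with Ints8, a gene on the opposite strand listed at 10.4 and 6.41 TPM. Ccne1 had 1.30 and 0.32 TPM, on 44 counts in library 1 (Poisson 95% interval 32.0 to 59.1) and 6 counts in library 2 (2.20 to 13.1). After centring on all protein-coding genes, the log2 ratio of library 1 over library 2 for Ccne1 was 1.66 with RSEM and 0.35 with kallisto, so its size depended on the program.

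Genes of the retinoblastoma family, which hold E2F factors inactive, were all above the median gene. Rb1 had 26.8 TPM in library 1 and 21.3 in library 2 (chromosome 14, 73183673 to 73325822), Rbl1 (p107) had 14.3 and 9.79 TPM, and Rbl2 (p130) had 12.1 and 9.10 TPM. Rb1 was 1.87 times Rbl1 in library 1 and 2.18 times in library 2, and 2.22 and 2.34 times Rbl2. The ranges of Rbl1 and Rbl2 overlapped over the libraries, but within each library Rbl1 was the higher with RSEM and with kallisto. Exons of Rb1 and Rbl2 also overlap genes on the opposite strand. The largest overlaps were 8.11% of the exon bases of Rb1, with Rcbtb2, and 11.8% of those of Rbl2, with Gm45464. E2f1, the gene of an activating E2F factor, had 4.0 and 3.55 TPM, and E2f2, another activator, had 0.85 and 0.64 TPM. Both E2F genes were below each of the 3 retinoblastoma family genes in both libraries.

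Among 13 other E2F, DP and MuvB genes, whose products bind the promoters of cell cycle genes, 12 were detected, with a median at percentile 35.7 ± 0.869. With RSEM the highest was Rbbp4, a histone-binding subunit of several chromatin complexes (13.3 TPM in library 1 and 5.99 in library 2). Next were E2f4, a repressive E2F (9.91 and 7.23), and Lin37, a MuvB subunit (6.63 and 8.99). With kallisto E2f7 had the highest mean of this list, 5.33 TPM, against 0.47 TPM with RSEM. The lowest detected was Tfdp2, a partner of E2F factors, at 0.77 and 0.56 TPM. All 14 genes of the Cdk-activating kinase and of the anaphase-promoting complex were detected, with a median at percentile 50.2 ± 5.06. Subunits of that complex led this list, with Anapc5 at 46.8 TPM in library 1 and 27.0 in library 2, Anapc1 at 33.1 and 29.9 TPM and Anapc2 at 16.7 and 10.4 TPM. Anapc10 was the lowest at 1.97 and 1.65 TPM.

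All 10 S phase genes were detected, and with RSEM all but Pcna lay below the median gene. With kallisto Rrm1 also lay above it, at percentile 52.2. Pcna, the gene of the sliding clamp of DNA polymerases, which also serves DNA repair and is a known p53 target, had 20.99 TPM in library 1 and 23.7 in library 2 (chromosome 2, 132249162 to 132253314). It took 49.1% of the summed TPM of the S phase genes in library 1 and 52.2% in library 2. The 6 Mcm genes encode the subunits of the hexameric replicative helicase. They lay between 1.56 TPM (Mcm4) and 4.73 TPM (Mcm6) in library 1, and between 1.52 TPM (Mcm4) and 5.63 TPM (Mcm3) in library 2.

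By gene TPM the Mcm genes did not keep one order across libraries. Mcm6 had 4.73 and 4.06 TPM, Mcm3 had 3.80 and 5.63, Mcm5 had 2.70 and 1.58, Mcm2 had 2.35 and 2.62, Mcm7 had 2.01 and 1.67, and Mcm4 had 1.56 and 1.52, with library 1 first in each pair. The ranges of Mcm6 and Mcm3 overlapped, as did those of Mcm5 with each of Mcm2 and Mcm7. In protein-coding transcripts alone Mcm6 had 4.38 and 4.06 TPM and Mcm3 had 2.25 and 2.26. Mcm6 was thus the higher in both libraries on that scale. Mcm7 (1.79 and 1.31 TPM) and Mcm4 (1.56 and 1.52) still changed places there. By gene TPM Pcna was 4.44 times Mcm6 in library 1 and 5.84 times in library 2.

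The genes that supply nucleotides were low. Rrm1, the large subunit of ribonucleotide reductase, had 3.21 TPM in library 1 and 3.38 in library 2. Rrm2, the small subunit, whose supply is known to be limited to S phase, had 0.48 and 0.43 TPM on 18 and 19 counts. By gene TPM Rrm1 was 6.69 times Rrm2 in library 1 and 7.86 times in library 2. In protein-coding transcripts alone the gap was smaller, with Rrm1 at 1.71 and 1.30 TPM and Rrm2 at 0.48 and 0.43. Tyms, which encodes thymidylate synthase, had 0.90 and 0.78 TPM.

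Tyms is also the member on which the programs differed most. With kallisto it had 1.58 TPM in library 1 and 2.84 in library 2, and its percentile was 37.5 against 10.6 with RSEM. After centring on all protein-coding genes the difference was 2.52 in library 1 and 2.34 in library 2 on the log2 scale, kallisto over RSEM. Cdk1, Birc5, Rrm1 and Ccne1 were the other members more than 2-fold apart in both libraries, and kallisto was the higher for all 5.

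Of 30 other genes of origin firing, replication and the G1/S transition, 28 were detected, at a median percentile of 21.5 ± 1.47, below the median gene like the S phase members. The highest were Tk1, a salvage kinase for thymidine (13.7 TPM in library 1 and 7.54 in library 2), Slbp, which binds the stem-loop of histone mRNA (11.0 and 6.49), and Dbf4, the activator of the Cdc7 kinase (4.96 and 4.77). Cdc6, which loads the Mcm helicase onto origins, was the lowest detected at 0.33 and 0.31 TPM.

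The promoter of Mcm5 is printed as an example of an S phase gene with E2F and CCAAT matches in its 250 upstream bases (chr8:75109259-75109508, plus strand, GRCm38.p6). Capitals mark, from the left, an E2F motif read on both strands and 2 CCAAT boxes.
Mcm5: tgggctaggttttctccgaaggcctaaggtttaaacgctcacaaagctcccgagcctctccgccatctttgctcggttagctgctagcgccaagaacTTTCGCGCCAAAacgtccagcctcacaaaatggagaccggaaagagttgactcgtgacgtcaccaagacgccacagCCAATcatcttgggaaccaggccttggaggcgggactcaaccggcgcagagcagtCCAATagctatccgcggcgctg
The E2F matches spanned 153 to 142 bases before the start, and the CCAAT boxes lay at 77 to 73 and at 22 to 18 bases.

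The G2/M genes were the lowest class, with Mki67 as the exception. Mki67, whose product Ki-67 coats mitotic chromosomes and is a common marker of proliferating cells, had 31.3 TPM in library 1 and 24.9 in library 2 (chromosome 7, 135689784 to 135716361, minus strand). Its mean was 28.1 ± 4.55 TPM (SD, n = 2) on 6617 and 5421 counts. It took 94.5% of all counts on G2/M members in library 1 (Wilson 95% interval 93.91% to 94.99%) and 93.0% in library 2 (92.4% to 93.7%). By TPM, which divides by transcript length, it took 78.3% and 77.8%.

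The other 11 G2/M genes did not share the level of Mki67. Top2a, the topoisomerase that untangles sister chromatids and another common proliferation marker, had 2.63 TPM in library 1 and 2.83 in library 2 on 190 and 239 counts. Mki67 stood at 11.9 times Top2a in library 1 and at 8.80 times in library 2. The remaining 10 genes had fewer than 50 counts in both libraries.

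Of these 10, Cdk1, the mitotic kinase, had 1.69 TPM in library 1 and 0.76 in library 2. Birc5, which encodes survivin of the chromosomal passenger complex, had 1.23 and 0.54 TPM, and Aurkb, the kinase of that complex, had 0.66 and 0.57 TPM. Of the genes of cyclins that activate Cdk1, Ccnb1 had 0.56 and 0.38 TPM and Ccna2 had 0.48 and 0.66 TPM. Ccna2 shares 12.5% of its exon bases with Exosc9, a gene of the RNA exosome listed at 6.11 and 4.78 TPM.

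Several other G2/M members were close to the limit of detection. Bub1, a kinase of the spindle checkpoint, had 0.44 TPM in library 1 and 0.29 in library 2, and Aurka, a kinase of spindle poles, had 0.34 and 0.65 TPM. Plk1, the polo-like kinase, had 12 counts in library 1 and 7 in library 2, Ccnb2 (cyclin B2) had 8 and 5, and Cdc20, the activator of the anaphase-promoting complex, had 4 and 3. The Poisson 95% interval of Cdc20 was 1.09 to 10.2 counts in library 1 and 0.619 to 8.77 counts in library 2. At this depth no order among Plk1, Ccnb2 and Cdc20 could be read.

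Mki67 reads were assigned almost wholly to the full-length model by RSEM. Mki67-201, a protein-coding transcript of 10061 bases, took 100% of the gene's TPM in library 1 and 97.8% in library 2. Kallisto gave it 72.3% and 80.6%, with the rest on Mki67-202, a coding model that begins 5468 bases downstream of the RefSeq start site. The 250 bases before that start site are printed because Mki67 is the highest gene of its class (chr7:135716380-135716629, minus strand). Capitals mark 3 CCAAT boxes, the second of them on the opposite strand, followed by 2 CHR motifs, the cell cycle genes homology region bound by the MuvB complex.
Mki67: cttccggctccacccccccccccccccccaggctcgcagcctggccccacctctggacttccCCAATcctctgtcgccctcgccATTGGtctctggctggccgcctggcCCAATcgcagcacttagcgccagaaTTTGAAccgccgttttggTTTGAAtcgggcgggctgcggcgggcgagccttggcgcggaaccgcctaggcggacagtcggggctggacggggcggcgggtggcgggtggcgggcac
The CCAAT boxes lay between 188 and 137 bases before the start and the CHR motifs between 116 and 93 bases.

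Of 30 other G2/M genes 22 were detected, at a median percentile of 11.6 ± 3.18. The highest were Pttg1, the gene of securin (23.1 TPM in library 1 and 16.5 in library 2), Mad2l1, a spindle checkpoint protein (10.7 and 14.1), and Incenp, the scaffold of the chromosomal passenger complex (14.2 and 9.35). Cenpf, a kinetochore protein, was the lowest detected at 0.30 and 0.10 TPM. Progenitor markers summed to 2.08 TPM over 6 genes in library 1 and 1.67 TPM in library 2, with 2 of the 6 detected and 0 of them at 0 in both libraries, and the part of such cells in these levels was not tested.

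**Figure D2:**
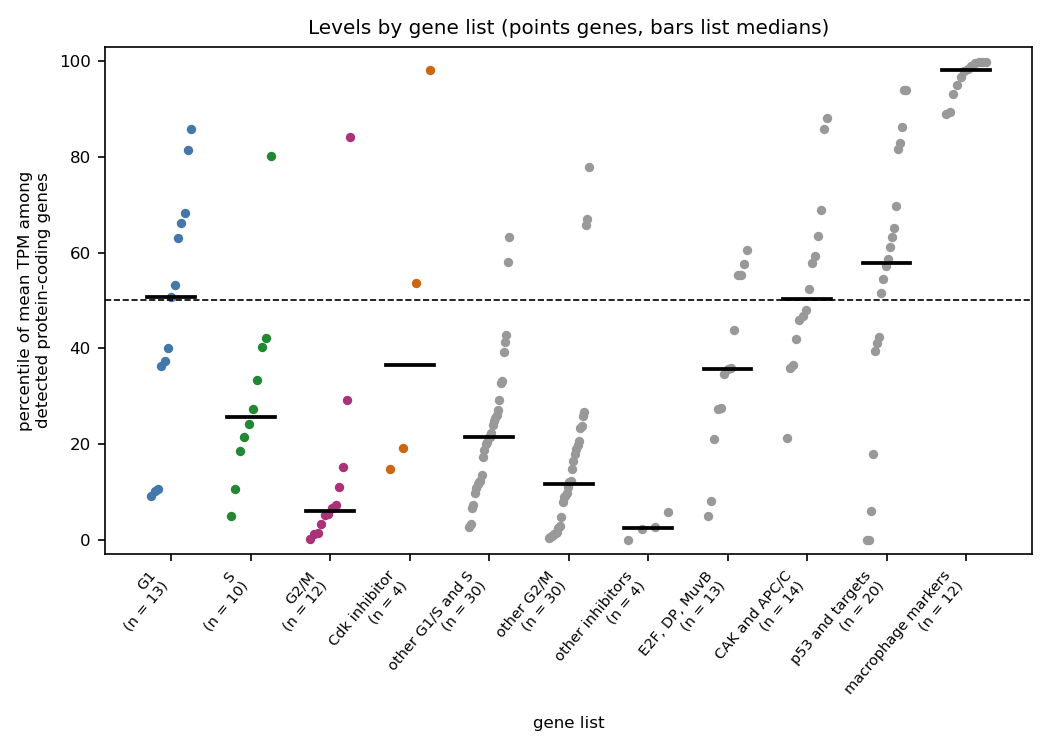
Percentile of each gene's mean TPM among detected protein-coding genes, by list, with members in colour, other lists in grey, and black bars at list medians. G2/M members (median 6.04) and the other G2/M genes (11.6) lie lowest apart from the other inhibitors, while p53 genes (57.9) and macrophage markers (98.2) lie above the dashed line of the median gene.

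The plot of percentiles by list places the members beside 111 other genes of the same pathways, of which 95 were detected. With RSEM, G2/M genes lay lower than S phase genes among the members and among the other genes alike. With kallisto the other genes differed little, at a median percentile of 17.0 for G2/M and 18.8 for G1/S and S phase. Counted with RSEM, 1 of the 10 S phase members and 2 of the 30 other G1/S and S phase genes lay above the median gene. For G2/M it was 1 of 12 members and 3 of 30 other genes, for G1 members 7 of 13, and for the p53 list 13 of 20.

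The share of RNA in protein-coding transcripts varied widely between members. It was computed for the 21 members with at least 100 counts in both libraries, as the percent of a gene's RSEM TPM. Its median was 79.8% over these members, against 76.7% over the 7644 protein-coding genes at that depth. With kallisto the order turned, at 61.5% over the members and 64.6% over those genes. The median retained-intron share was 7.88% over the members and 12.0% over those genes. Under 50% in protein-coding transcripts were 3 members, Mdm2, Rrm1 and Mcm3, and 18.9% of all genes at that depth. A retained-intron share above 25% was found for 7 of the 21 members and for 31.5% of all genes, so neither count set the members apart.

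**Figure D3:**
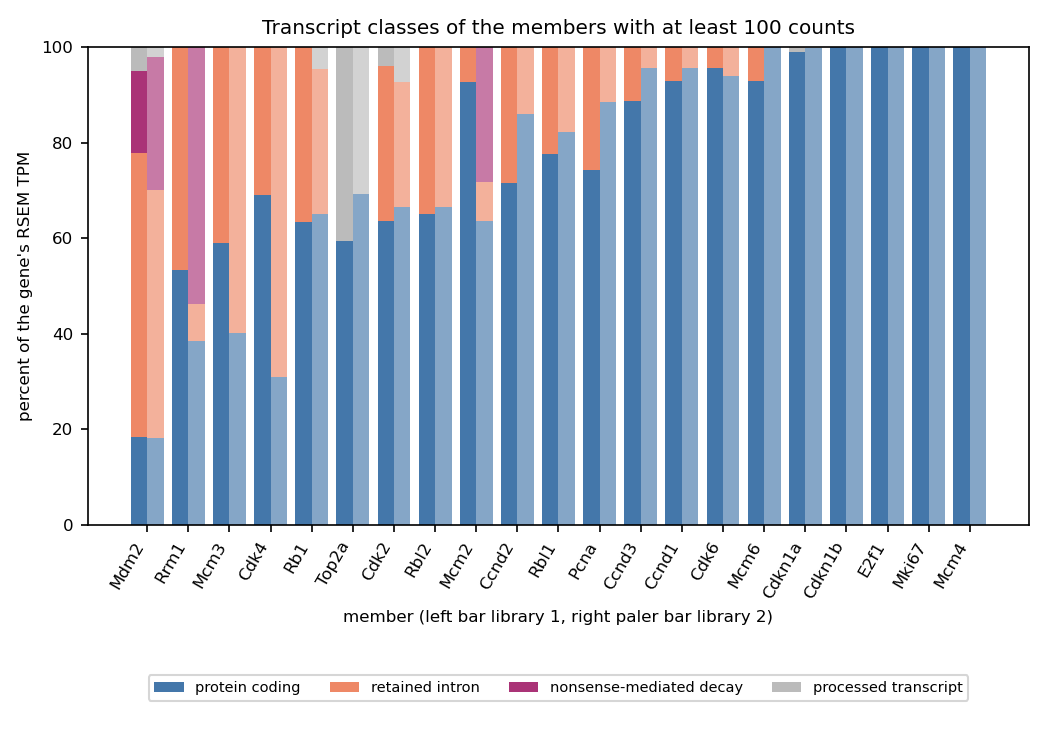
Percent of each gene's RSEM TPM in 4 transcript classes for the 21 members with at least 100 counts in both libraries, ordered by the mean protein-coding share, with library 1 as the left and library 2 as the paler right bar. Mdm2 at the left has 18.4% and 18.2% in protein-coding transcripts, while Cdkn1a, Cdkn1b, E2f1, Mki67 and Mcm4 at the right are at 98.9% or above.

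Several members with retained-intron transcripts repeated their share across libraries, and others did not, as the bars by transcript class show. Rb1 had 36.7% in library 1 and 30.3% in library 2 in this class, Rbl2 had 35.0% and 33.5%, and Cdk2 had 32.4% and 26.2%. Cdk4 had 31.0% in library 1 and 69.0% in library 2, and Mcm3 had 40.9% and 59.9%. For Rrm1, with 161 and 145 counts, library 1 put 46.7% on retained introns while library 2 put 53.8% on a nonsense-mediated decay model. The retained-intron shares of Cdk4 and Mcm3 thus moved by more than those of Rb1, Rbl2 and Cdk2. A steady class share can still hide a shift between models, as Cdk2-202 took 35.6% of the TPM of Cdk2 in library 1 and 55.1% in library 2.

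Between the libraries, no member with enough counts differed by more than 2-fold. TPM of protein-coding genes was higher in library 1 by a median of 0.37 on the log2 scale, so ratios of library 1 over library 2 were centred on that median. Of the 21 members with a mean of 100 or more counts, 0 lay over 2-fold apart, against 3.09% of the 7997 protein-coding genes at that depth. The centred log2 ratio ran from -0.93 (Mcm3) to 0.50 (Cdk6), with a median of -0.19 and 7 of 21 above 0. The median size of the ratio was 0.33 for the members and 0.28 for all genes. With 1 library on each side no test was possible, and the RNA input, 1 µg against 500 ng, cannot be told apart from the replicate.

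**Figure D4:**
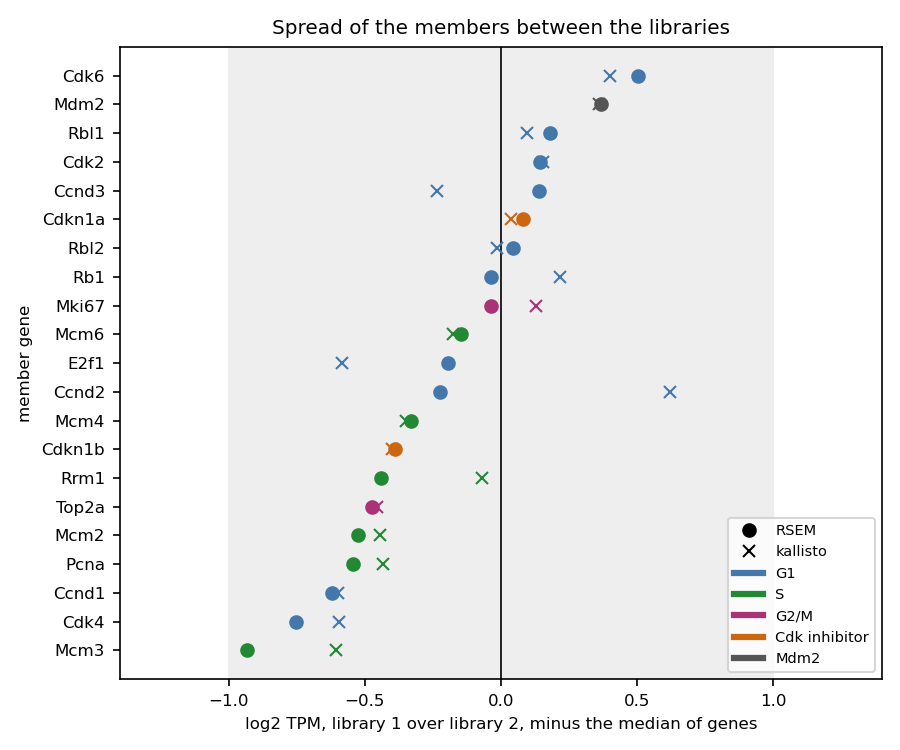
Centred log2 ratio of TPM, library 1 over library 2, for the 21 members with a mean of 100 or more counts, coloured by class, with RSEM as circles and kallisto as crosses and a grey band at 2-fold either way. All circles lie inside the band, from Mcm3 at -0.93 to Cdk6 at 0.50, and Ccnd2 has its circle at -0.22 and its cross at 0.62.

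The plot of ratios between libraries shows the highest members near or right of the centre. Mdm2 was at 0.37, Cdkn1a at 0.08 and Mki67 at -0.03. Ccnd2 was the member whose direction depended most on the program, at -0.22 with RSEM and 0.62 with kallisto. At a minimum of 10 counts, 2 further members passed 2-fold, Ccne1 at 1.66 and Aurka at -1.30, and 7.73% of protein-coding genes did so at that minimum. Aurka had 12 counts in library 1 and 11 in library 2, so its counts hardly differed. Aurka-204, a retained-intron model of 672 bases, took 0% of its TPM in library 1 and 75.2% in library 2, there on 5 counts.

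Promoter windows from RefSeq (GRCm38.p6), each 300 bases long from 250 before to 50 after a start site, were available for 33 of the 40 members, 38 windows in all. Both strands were searched for 5 motifs. The E2F motif was any of TTTCCCGC, TTTCGCGC, TTTGCCGC and TTTGGCGC. The CHR motif was TTTGAA in its usual form, and the variant form TTCGAA was accepted as well. The CCAAT box was searched as spelled, and the p53 and NF-κB motifs by their consensus. An E2F motif was found in 21.1% of the member windows and in 2.26% of all 32851 windows in the table. A CHR motif was found in 31.6% and 19.2%, and a CCAAT box in 68.4% and 37.4%. The p53 motif was found in 13.2% of member windows and 8.36% of all windows, and the NF-κB motif in 7.89% and 4.51%. Matches to different motifs may overlap.

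By class, E2F matches were most frequent among S phase genes and CHR matches among G2/M genes. E2F motifs were in 4 of the 9 S phase genes with a window (Mcm3, Mcm5, Mcm6 and Mcm7), in 3 of 9 G1 genes (Cdk2, E2f2 and Rbl1) and in 1 of 10 G2/M genes (Cdk1). CHR motifs were in 8 of 10 G2/M genes, all but Birc5 and Ccnb1, and in 2 of 9 S phase and 2 of 9 G1 genes. CCAAT boxes were in 9 of 10 G2/M genes, 8 of 9 S phase genes and 3 of 9 G1 genes. The p53 motif was in 5 genes, Cdkn1a, Cdkn2d, Mdm2, Birc5 and Tyms, or 13.2% of member windows against 8.36% of all windows. These 5 included the 2 highest members and also Tyms and Birc5, which lay near percentile 11.

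**Figure D5:**
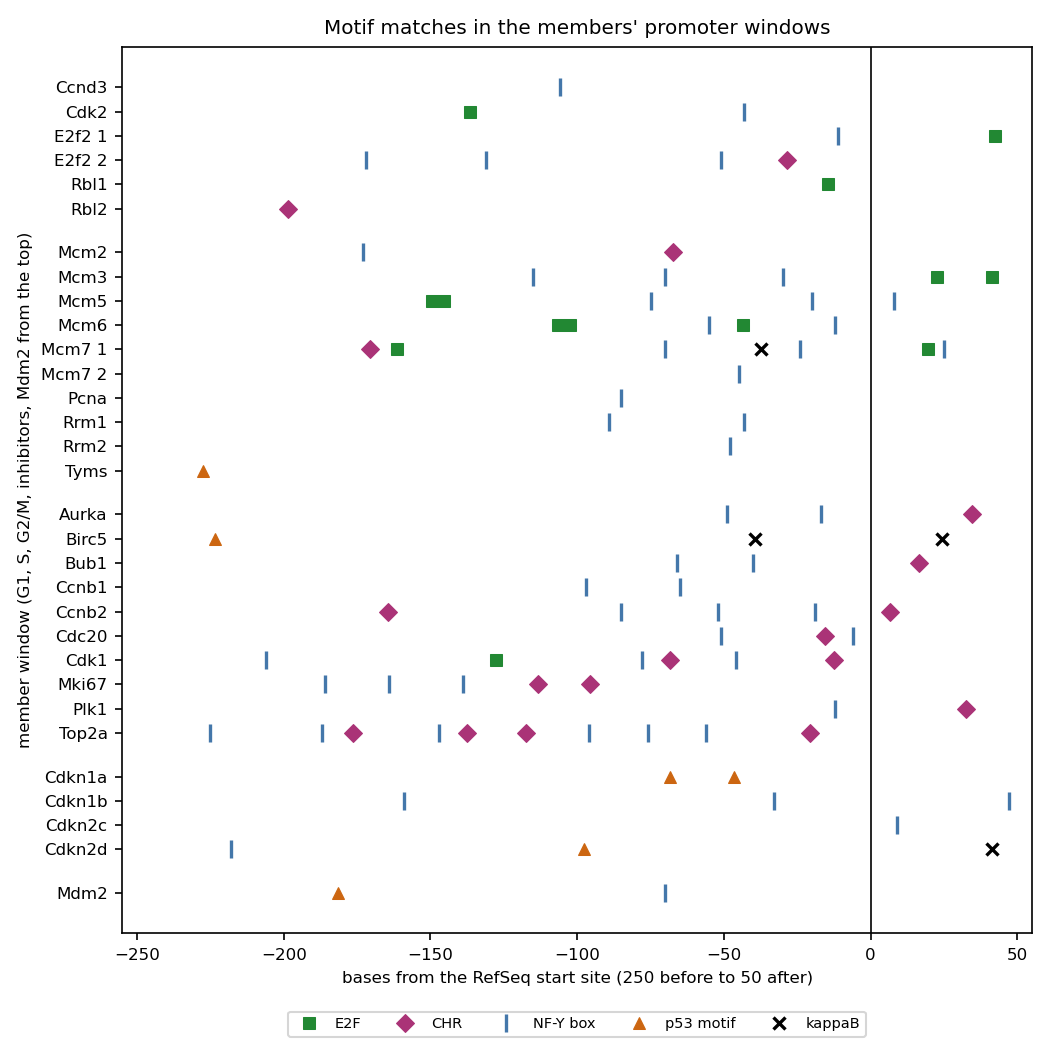
Position of motif matches in bases from the RefSeq start site for the member windows that hold at least 1 match, grouped by class from G1 at the top to Mdm2 at the bottom, with a number after the gene where it has several windows, and with CCAAT labelled as the NF-Y box. CHR diamonds gather in the G2/M rows and E2F squares in the Mcm rows. The p53 triangles lie 73 to 42 bases before the upstream start of Cdkn1a and 186 to 177 bases before that of Mdm2. Triangles also stand in the rows of Cdkn2d, Birc5 and Tyms.

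The map of motif positions shows motifs of the same kind in some G2/M members of unlike level. Mki67, Top2a and Cdk1 each held CCAAT boxes and CHR motifs, and their mean levels were 28.1, 2.73 and 1.23 TPM with RSEM. With kallisto these were 13.8, 2.02 and 2.54 TPM, so Mki67 was the highest with both programs. The order of Top2a and Cdk1 depended on the program. A match, or its absence from this window, says nothing of whether a factor was bound in these cells, and a link between motifs and level was not tested.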

How the data were processed

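Ribosomal RNA-depleted total RNA of the nuclear fraction, which the labels call nucleoplasmic, was measured in 2 libraries of 1 group. Per the submitters' notes beside the files, the assembly was mm10 and the annotation GENCODE M21. The sources used here do not name the aligner, the program versions or the strand setting. Expected counts per gene and transcript were deposited by the authors in the column layouts of RSEM and kallisto and need not be whole. TPM is the authors' length-scaled value, per the file headers. The percent of a gene's TPM in each transcript was deposited by the authors. The authors also deposited credibility bounds of TPM (a score of precision, level not stated), which no result here uses.

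Members were joined by gene identifier, and all 55536 Ensembl identifiers matched M21. A further 26345 rows that name no gene (0.653% of counts in library 1 and 0.222% in library 2) were left out of totals. Percentiles are the percent of detected protein-coding genes (10 or more counts in both libraries) with a lower mean TPM. The percentile of a class is the median over all its members, detected or not, and its SD is over the 2 libraries. Transcript classes needed 100 counts in both libraries and ratios a mean of 100. With 1 group no p-value was computed. As both libraries carry the same donor entry, their spread may be technical. Python 3.11.15 with pandas 2.3.3 and scipy 1.17.1 was used, and the scripts were tested on simulated data. Overlapping genes, and members with pseudogenes, share reads.

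The members, the other gene lists and the settings were chosen with earlier results of these data known. All 40 members are named. Of each other pathway list the 3 highest by mean TPM and the lowest detected are named, and of each marker list the highest. Alternatives were kallisto values, other count minimums, counts in place of TPM, no centring, a pseudocount of 1 and each library alone.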

Additional observations from a re-analysis of the deposited data

How the results depend on the processing

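The percentile of a class depended most on the background. The values with a minimum of 50 counts and with no minimum were 39.5 and 75.4 for G1 genes, 11.4 and 62.8 for S phase genes, 0.252 and 52.1 for G2/M genes, 24.6 and 68.2 for inhibitors, and 11.4 and 62.8 for all members. This follows from the number of low genes ranked. With kallisto TPM the value was 42.8 for G1 genes and 32.0 for all members, and with counts in place of TPM it was 32.2 for S phase genes, 4.09 for G2/M genes and 32.2 for all members. Leaving out 1 library gave 45.6 to 51.7 for G1, 25.3 to 26.9 for S phase, 5.42 to 7.95 for G2/M, 32.6 to 41.4 for inhibitors and 25.1 to 28.4 for all members. The order of the classes was kept in all 6 settings, but those that changed only the count minimum could hardly alter it. A minimum of 50 counts left 23 members detected. The median protein-coding share of members was 61.5% with kallisto, below the 64.6% of all genes where RSEM put it above, and 77.6% to 86.0% with 1 library. At a minimum of 10 counts, 2 members were over 2-fold apart in place of 0. With kallisto the percentile of 5 members was higher by over 10 points and that of 1 was lower, and the cause was not tested. No paired analysis was possible because both libraries belong to 1 group. Depth limits the G2/M genes most, as 10 of 12 had fewer than 50 counts in both libraries.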
